A study of Homo sapiens with 18 samples.

Results

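The MYC, MAX and MXD network was followed by the counts of 10 genes, MYC, MYCN, MAX, MXD1, MXD3, MXD4, MXI1, MNT, MGA and MLX, out of 25369 gene symbols in the count table. They were chosen by name, and all 10 were in the table and passed the filter on low counts. The RNA came from D458 and D425, established lines of Group 3 medulloblastoma, a childhood tumour of the cerebellum. Both lines are known to derive from the same patient and to carry extra copies of MYC. Short hairpin RNAs (shRNAs) against EYA2, a coactivator and phosphatase that works with homeobox proteins, were set against a non-targeting control shRNA in the same line. The 6 groups of 3 biological replicates were D458 with EYA2 hairpin 7, D458 with EYA2 hairpin 8, D458 with the control shRNA, D425 with EYA2 hairpin 6, D425 with EYA2 hairpin 8 and D425 with the control shRNA. In every group, transduced cells went through 48 h of puromycin (1 µg/mL), a sort for the brightest 10% of zsGreen-positive cells and a 24 h rest before lysis. Both hairpins of a line were compared with the same 3 control libraries.

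MYC and its relative MYCN are transcription factors with a basic helix-loop-helix and leucine zipper region, and they bind DNA only as a pair with MAX. The preferred site of the pair is the E-box CACGTG, from which MYC recruits acetyltransferase complexes and raises transcription of genes for growth, ribosome assembly and metabolism. MXD1, MXI1 (also called MXD2), MXD3, MXD4 and MNT compete for MAX and for the same site and bring the SIN3 and histone deacetylase corepressor. MGA pairs with MAX inside a Polycomb complex named PRC1.6, and MLX is a MAX-like partner of MXD1, MXD4, MNT and the glucose-sensing Mondo proteins. In Group 3 medulloblastoma, MYC amplification is a well-known driver.

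The 18 libraries held 21260369 to 31552051 counts. Levels are CPM, counts scaled to library size with TMM factors, and changes are log2 fold changes with standard errors and with p values adjusted over all 14850 genes tested. EYA2, the target, was at 45.1 to 51.8 CPM with hairpin 7 and 18.2 to 23.5 CPM with hairpin 8 in D458, against 67.5 to 73.7 CPM in D458 controls. In D425 it was at 9.72 to 15.1 CPM with hairpin 6 and 12.04 to 17.5 CPM with hairpin 8, against 15.5 to 43.6 CPM in controls. The fall of EYA2 passed the test with D458 hairpin 8 (-1.79 ± 0.27, adjusted p = 5.06e-04) and with both D425 hairpins, and D458 hairpin 7 missed it (-0.55 ± 0.26, adjusted p = 0.137). The Group 3 genes OTX2 (1265 to 2274 CPM), IMPG2, EYS, GABRA5, CRX and NRL were detected in every library, and NPR3 was at 0 in 11 of 18. ATOH1 of the SHH type and WIF1 of the WNT type were at 0 in 12 and 18 libraries. The replicate 1 libraries of the D458 hairpins lay apart from their group on the first principal component of that line, at -52.4 and -58.0, where the other 4 hairpin libraries lay between -20.1 and -2.5 and the 3 controls between 35.6 and 55.0. Replicate 1 also lay apart in D425, at -31.7 and -45.4 with hairpins 6 and 8, where the other 4 hairpin libraries lay between -26.3 and -10.6, and at 19.8 in the control, where the other 2 controls lay at 56.1 and 72.4. Calls are therefore also given from a fit without replicate 1 of every group. On the labels replicates 2 and 3 share a date in both lines. Replicate 1 has an earlier date, which differs between D425 and D458. The fit without replicate 1 therefore holds no spread between dates. It is not a check of the calls across dates. With D425 hairpin 6 it called 3439 genes, against 2101 with all libraries, and fits without other libraries called as few as 116. The 5 fibroblast markers COL1A1, COL1A2, DCN, PDGFRB and LUM summed to 34.3 to 55.3 CPM with hairpin 7 and 32.1 to 60.8 CPM with hairpin 8 in D458, against 6.89 to 8.44 CPM in controls. In D425 the sums were 35.2 to 71.8 CPM with hairpin 6 and 43.5 to 72.9 CPM with hairpin 8, against 16.1 to 30.2 CPM in controls. Of this list COL1A1 was detected in every library and LUM was at 0 in 2. COL1A2 was nearly absent, at 0.0635 to 0.465 CPM, and PDGFRB was at 3.51 to 38.2 CPM. The sum is therefore not read as a share of fibroblasts. Every hairpin change below was measured in libraries that also differed in this sum, and its part in them was not tested. NKD1, on the WNT list, was at 2.54 to 8.00 CPM and rose with all 4 hairpins. The immune and endothelial markers summed to at most 3.71 and 0.534 CPM in any library.

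Per kilobase of the longest matched transcript, MYC stood far above the rest of the network in every group, at 1444 and 1433 CPM per kilobase with hairpins 7 and 8 and 1710 in controls of D458, and at 1125 and 1034 with hairpins 6 and 8 and 1513 in controls of D425. MAX came next in all 6 groups, at means of 41.4 to 49.4 CPM per kilobase. On this scale MYC exceeded its obligate partner MAX 31.8 and 29.04 times with hairpins 7 and 8 and 35.9 times in controls of D458, and 27.2 and 24.6 times with hairpins 6 and 8 and 36.2 times in controls of D425. MLX, MXI1, MXD4 and MNT formed the middle of the order, at 14.5 to 40.8 CPM per kilobase. MAX and MLX did not differ beyond their spread in D425, and neither did MXI1, MXD4 and MNT in D425 controls. MXD3 and MGA followed at 4.22 to 11.2 CPM per kilobase. MXD1 came next to last at 1.46 to 2.88 CPM per kilobase, and MYCN was last at 0.00481 to 0.203. The rank of MXD4 was 3 with both hairpins and 5 in controls of D458, and 5 with both hairpins and 6 in controls of D425. Rank 3 lay within the spread. MXD4 was at 26.8 to 41.5 CPM per kilobase and MLX at 28.4 to 30.3 with D458 hairpin 7. With D458 hairpin 8 they were at 26.8 to 42.1 and 25.8 to 27.8. In D425, MXD4 overlapped MNT in controls and with hairpin 8, and lay just above it with hairpin 6.

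**Figure D1:**
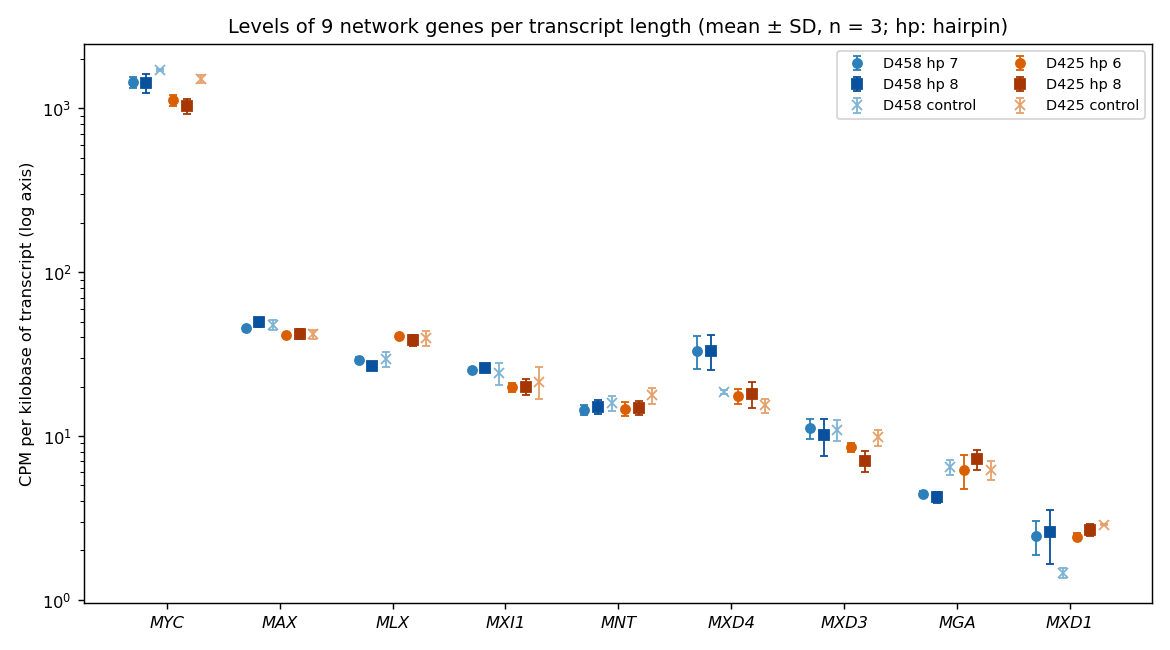
Mean level of 9 network genes per kilobase of transcript, on a log axis, in each of 6 groups (points: mean of 3 libraries; bars: SD; hp: hairpin; MYCN lies below the axis and is not drawn). MYC lies between 1034 and 1710 CPM per kilobase, and no other gene exceeds 49.4.

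Across the network, 3 of 10 genes were called at an adjusted p under 0.05 with each D458 hairpin, and these were MXD1 and MXD4 (higher) and MGA (lower) in both cases. With hairpin 7, 22.6% of all genes tested were called, 11.5% higher and 11.1% lower, and with hairpin 8, 23.2%, 12.1% higher and 11.1% lower. In D425, 1 of 10 was called with hairpin 6 (MYC, lower), where 14.1% of all genes were called, 7.31% higher and 6.84% lower. With D425 hairpin 8, MYC (lower) was called, where 21.7% of all genes were called, 11.6% higher and 10.1% lower. MYCN passed the filter only through the D425 hairpin libraries, so it is not counted as called here. With so few network genes, these counts are not read as departures from the shares of all genes. With replicate 1 left out of every group, MXD1, MXD4 and MGA were again the 3 called with each D458 hairpin. In that fit 18.6% of all genes were called with hairpin 7 and 15.1% with hairpin 8. In D425 the calls were then 3 with hairpin 6 (MYC, MNT and MGA, lower) and 3 with hairpin 8 (MYC, MXD3 and MNT, lower), MYCN left aside. The shares of all genes called in D425 were 23.3% and 28.1%. Without replicate 3 of every group, all D458 calls of network genes were lost. The median change of the 10 was 0.01 and -0.09 with hairpins 7 and 8 in D458 and -0.06 and -0.08 with hairpins 6 and 8 in D425, and that of all genes was between 0.01 and 0.02 in all 4. In bulk RNA a lower level in each cell and fewer cells that express the gene cannot be told apart.

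**Figure D2:**
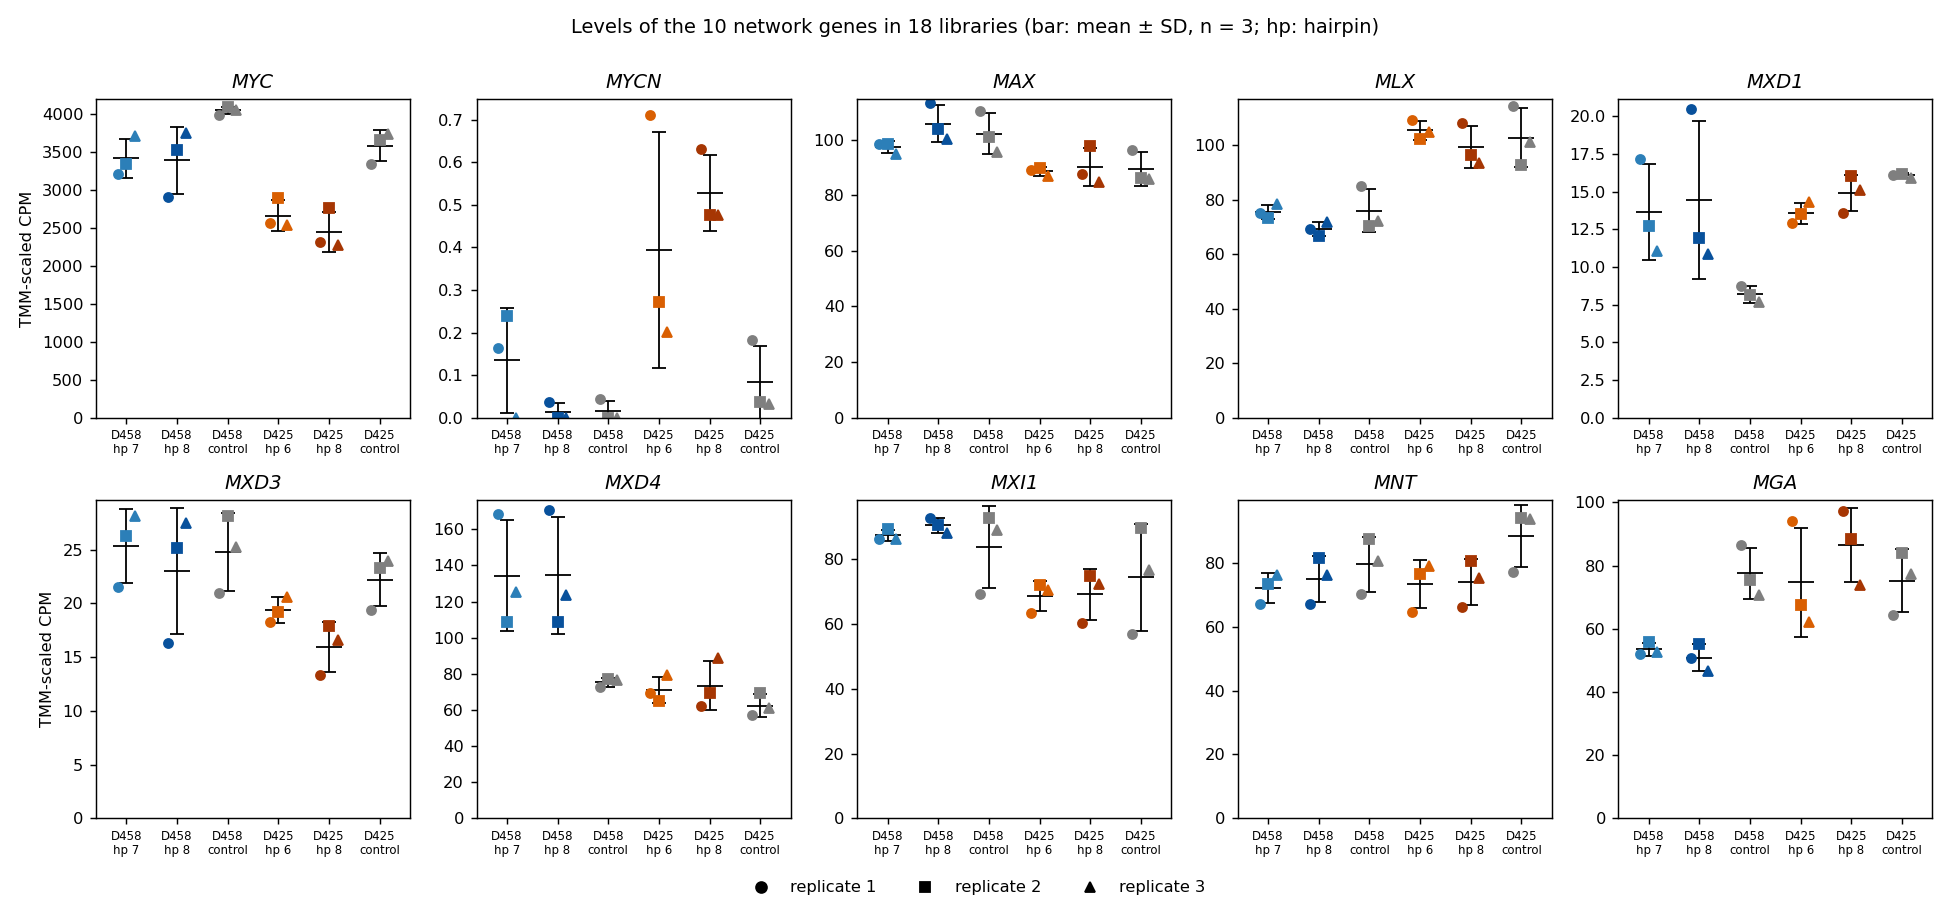
CPM of each network gene in all 18 libraries by group (hp: hairpin; symbols: replicates 1 to 3; bars: mean ± SD, n = 3; each panel has its own axis from 0). MYC is lower in every hairpin library than in any control library of its line, and MXD1 and MXD4 are higher in every D458 hairpin library than in any D458 control.

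MYC itself was lower in all 4 comparisons, and its fall passed the test with both D425 hairpins. In D425, MYC was at 2561, 2894 and 2532 CPM with hairpin 6 and at 2312, 2755 and 2270 CPM with hairpin 8, against 3347, 3659 and 3735 CPM in controls. No hairpin library reached the lowest control. The level with hairpin 6 was 74.4% of the control level (-0.43 ± 0.10, adjusted p = 0.00733), and with hairpin 8 it was 68.3% (-0.55 ± 0.10, adjusted p = 9.39e-04). Both calls held when any one of the 6 libraries was left out. Without replicate 3 of every group both were lost (-0.37, adjusted p = 0.183, and -0.47, adjusted p = 0.0620). Without replicate 2 of every group the hairpin 6 call was also lost (-0.48, adjusted p = 0.0872). In D458, MYC was at 3207, 3334 and 3707 CPM with hairpin 7 and at 2902, 3520 and 3752 CPM with hairpin 8, against 3992, 4091 and 4057 CPM in controls. Here too the groups did not overlap, but both changes missed the threshold. Hairpin 7 gave -0.24 ± 0.10 (95% interval -0.45 to -0.04, adjusted p = 0.0756) and hairpin 8 gave -0.25 ± 0.10 (-0.46 to -0.05, adjusted p = 0.0652). They passed it with the replicate number as a block (adjusted p = 0.00836 and 0.00596), and the hairpin 8 change also passed without hairpin 8 replicate 3 (-0.31, adjusted p = 0.0406). Without replicate 1 of every group they were smaller, at -0.21 with hairpin 7 (adjusted p = 0.143) and -0.16 with hairpin 8 (adjusted p = 0.277). Same-numbered libraries gave MYC differences of -0.32, -0.30 and -0.13 with D458 hairpin 7, -0.46, -0.22 and -0.11 with D458 hairpin 8, -0.39, -0.34 and -0.56 with D425 hairpin 6, and -0.53, -0.41 and -0.72 with D425 hairpin 8. The smallest D458 differences were those of replicate 3 with both hairpins, and the largest D425 differences were also those of replicate 3. EYA2 differences of these D425 pairs were -1.53, -1.20 and -0.68 with hairpin 6 and -1.32, -1.03 and -0.29 with hairpin 8, smallest in replicate 3. In D458 they were -0.64, -0.38 and -0.63 with hairpin 7 and -2.02, -1.52 and -1.85 with hairpin 8. Whether the MYC changes follow those of EYA2 was not tested. MYC transcripts made up 0.333% and 0.332% of all counts with hairpins 7 and 8 and 0.383% in controls of D458, and 0.275% and 0.260% with hairpins 6 and 8 and 0.361% in controls of D425.

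**Figure D3:**
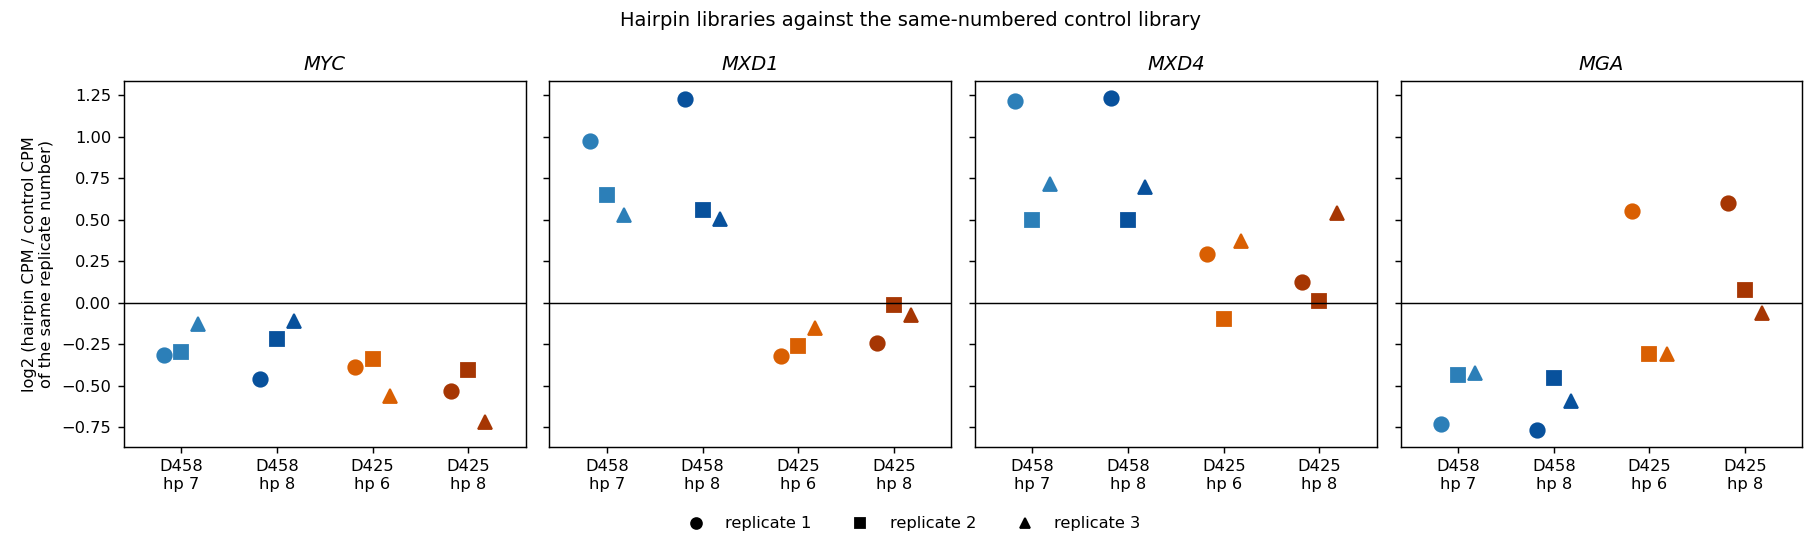
Log2 ratio of each hairpin library's CPM to that of the control library with the same replicate number, for 4 network genes (hp: hairpin; symbols: replicates 1 to 3; line at 0: no difference). MYC lies below 0 in all 12 pairs, MXD1 and MXD4 above 0 in the 6 D458 pairs, and MGA below 0 in the 6 D458 pairs and on both sides in D425.

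MYCN, the MYC relative of the nervous system, was close to the limit of detection. D425 libraries held 18, 7 and 6 counts with hairpin 6 and 19, 13 and 14 counts with hairpin 8, against 5, 1 and 1 counts in controls. MYCN passed the filter on low counts only through the D425 hairpin libraries, where it was high, so no test of it is given and its counts are a description. Every D425 hairpin library held more counts than any D425 control. In D458 there were 4, 5 and 0 counts with hairpin 7 and 1, 0 and 0 counts with hairpin 8, against 1, 0 and 0 counts in controls, too few for a fold change. Exons of MYCN overlap those of its antisense transcript MYCNOS, and since the strand setting of the counting is not given in the sources used here, reads of the pair cannot be told apart.

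MAX, the shared partner, did not differ detectably between hairpin and control. It was at 94.9 to 98.5 CPM with hairpin 7 and 100.2 to 113 CPM with hairpin 8, against 95.4 to 110 CPM in D458 controls. In D425 it was at 86.8 to 89.9 CPM with hairpin 6 and 84.8 to 97.8 CPM with hairpin 8, against 85.7 to 96.3 CPM in controls. The 95% intervals of the 4 changes all lay within -0.23 and 0.21. Reads of MYC per read of MAX were 35.2 ± 3.45 and 32.3 ± 6.03 with hairpins 7 and 8 and 39.8 ± 3.22 in controls of D458, and 30.05 ± 1.87 and 27.1 ± 0.92 with hairpins 6 and 8 and 40.3 ± 4.79 in controls of D425 (SD, n = 3 each). The ratio was lower in every D425 hairpin library than in any D425 control library, and in D458 the groups overlapped, with a lower ratio in all 6 same-numbered pairs.

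MLX, the partner of the Mondo proteins, was also near its control level in every comparison. It was at 73.4 to 78.4 CPM with hairpin 7 and 66.7 to 72.0 CPM with hairpin 8, against 70.5 to 85.0 CPM in D458 controls. In D425 it was at 102 to 109 CPM with hairpin 6 and 93.4 to 108 CPM with hairpin 8, against 92.8 to 115 CPM in controls. Its changes of -0.01, -0.13, 0.04 and -0.05, in the order hairpins 7 and 8 of D458 and hairpins 6 and 8 of D425, had 95% intervals within -0.32 and 0.22. Exons of MLX overlap those of PSMC3IP on the other strand. Of the proteins that join the network but were not among the 10, MLXIP (MondoA) passed in no hairpin comparison. MLXIPL (ChREBP), the liver and glucose-sensing Mondo protein, averaged 2.29 ± 0.951 CPM with D425 hairpin 8 and 1.00 ± 0.275 CPM in D425 controls (SD, n = 3 each; 1.19 ± 0.39 log2, adjusted p = 0.0404). ZBTB17 (MIZ1), through which MYC represses genes, fell with D425 hairpin 8 (-0.22 ± 0.07, adjusted p = 0.0380; 0.0823 without replicate 1 of every group). MYCL, another MYC gene, passed in none.

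MXD1 and MXD4, antagonists of MYC that are known to be high in differentiating cells, rose together with both D458 hairpins. The RefSeq promoters of this pair, from 250 bases before to 50 after the start on GRCh38.p14, are shown because the members moved together, and that of MLX because its level differed between the lines. Capitals mark the E-box CACGTG, which reads the same on both strands. Coordinates are chr4:2262060-2262359, minus strand, for MXD4, chr2:69914859-69915158, plus strand, for MXD1 and chr17:42566850-42567149, plus strand, for MLX.
MXD4: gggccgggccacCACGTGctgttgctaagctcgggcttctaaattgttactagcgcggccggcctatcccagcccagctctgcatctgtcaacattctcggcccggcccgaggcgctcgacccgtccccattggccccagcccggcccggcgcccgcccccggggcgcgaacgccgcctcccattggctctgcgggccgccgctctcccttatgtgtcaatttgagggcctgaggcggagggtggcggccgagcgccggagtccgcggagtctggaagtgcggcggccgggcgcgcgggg
MXD1: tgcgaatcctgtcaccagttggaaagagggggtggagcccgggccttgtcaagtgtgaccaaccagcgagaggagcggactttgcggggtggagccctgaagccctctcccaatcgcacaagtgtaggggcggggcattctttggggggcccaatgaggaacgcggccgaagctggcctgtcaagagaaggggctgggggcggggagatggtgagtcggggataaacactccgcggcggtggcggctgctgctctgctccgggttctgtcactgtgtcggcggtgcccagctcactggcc
MLX: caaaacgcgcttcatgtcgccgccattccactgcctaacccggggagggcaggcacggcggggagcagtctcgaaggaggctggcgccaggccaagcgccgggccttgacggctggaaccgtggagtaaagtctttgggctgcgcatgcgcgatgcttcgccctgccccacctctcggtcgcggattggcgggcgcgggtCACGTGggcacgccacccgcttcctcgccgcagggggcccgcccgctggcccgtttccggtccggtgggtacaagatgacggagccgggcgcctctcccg
The E-box of MXD4 begins 238 bases before the start and that of MLX 50 bases before it, and the MXD1 window holds none. Of the 9 network genes with a promoter in the RefSeq table, 3 held the motif (MXD4, MNT and MLX). Of all 35116 single promoters of this length 2548 did (7.26%). The network figure counts genes, some of which have multiple promoters, so it is not read against the share of single promoters. A match of letters does not show that a factor binds there.

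MXD4 was at 168, 109 and 126 CPM with hairpin 7 and at 171, 109 and 124 CPM with hairpin 8, against 72.6, 77.0 and 76.6 CPM in D458 controls. All 6 hairpin libraries lay above the 3 controls, and replicate 1 was the highest with both hairpins. The level was 1.78 times that of controls with each hairpin (0.83 ± 0.17, adjusted p = 0.00428, and 0.84 ± 0.17, adjusted p = 0.00397). Both calls held without any one of the 6 libraries, and with replicate 1 left out of every group the changes were 0.61 (adjusted p = 0.00683) and 0.60 (adjusted p = 0.00914). Both also held without replicate 2 of every group (adjusted p = 0.0381 and 0.0338). Without replicate 3 of every group the changes were 0.92 and 0.93, and both calls were lost (adjusted p = 0.0590 and 0.0503). In D425, MXD4 was at 69.6, 64.7 and 79.1 CPM with hairpin 6 and at 62.1, 69.5 and 88.8 CPM with hairpin 8, against 56.9, 69.2 and 61.1 CPM in controls. These groups overlapped, and neither change passed: hairpin 6 gave 0.19 ± 0.17 (95% interval up to 0.56, adjusted p = 0.528) and hairpin 8 gave 0.24 ± 0.17 (up to 0.61, adjusted p = 0.359).

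MXD1 was at 17.2, 12.7 and 11.1 CPM with hairpin 7 and at 20.5, 11.95 and 10.9 CPM with hairpin 8, against 8.75, 8.11 and 7.67 CPM in D458 controls. As for MXD4, no hairpin library overlapped the controls and replicate 1 was the highest. The level was 1.67 times that of controls with hairpin 7 (0.74 ± 0.20, adjusted p = 0.0159) and 1.77 times with hairpin 8 (0.82 ± 0.20, adjusted p = 0.00892). With replicate 1 left out of every group the changes were 0.59 (adjusted p = 0.00826) and 0.53 (adjusted p = 0.0169). Without replicate 2 or 3 of every group both calls were lost (adjusted p of 0.0506 to 0.124). With only the outlying library left out and its control kept, the hairpin 7 call was lost without hairpin 7 replicate 1 (and also without control replicate 3, adjusted p of up to 0.103), and the hairpin 8 change was 0.50 (adjusted p = 0.0577). In D425, MXD1 was at 12.9, 13.5 and 14.3 CPM with hairpin 6 and at 13.6, 16.02 and 15.1 CPM with hairpin 8, against 16.1, 16.2 and 15.9 CPM in controls. The hairpin 6 libraries lay below the controls and those of hairpin 8 overlapped them. Neither change passed, at -0.24 ± 0.19 with hairpin 6 (adjusted p = 0.453) and -0.11 ± 0.19 with hairpin 8 (adjusted p = 0.734). Exons of MXD1 and its same-strand neighbour SNRNP27 overlap in the annotation, so some reads could belong to either.

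The other antagonists of the family did not pass in any hairpin comparison. MXI1 was at 86.4 to 89.5 CPM with hairpin 7 and 88.1 to 92.8 CPM with hairpin 8, against 69.2 to 92.9 CPM in D458 controls. It was at 63.6 to 72.2 CPM with hairpin 6 and 60.2 to 74.8 CPM with hairpin 8, against 57.0 to 89.8 CPM in D425 controls, and its 4 changes lay between -0.11 and 0.11. MXD3, the family member known from dividing cells, was at 21.5 to 28.2 CPM with hairpin 7 and 16.3 to 27.5 CPM with hairpin 8, against 20.96 to 28.1 CPM in D458 controls. In D425 it was at 18.3, 19.2 and 20.6 CPM with hairpin 6 and at 13.3, 17.9 and 16.6 CPM with hairpin 8, against 19.4, 23.3 and 24.0 CPM in controls. The hairpin 8 libraries all lay below the D425 controls, and the change missed the threshold (-0.48 ± 0.17, adjusted p = 0.0590). It passed with DESeq2 (adjusted p = 0.0379), with the libraries of D425 alone (0.0260) with the replicate block (0.00127) and without control replicate 1 (0.0411). MXD3 shares exon positions with RAB24 on its own strand and PRELID1 on the other.

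MNT, the most widely expressed antagonist, was lower in all 12 same-numbered pairs without a call. It was at 64.8, 76.6 and 79.0 CPM with hairpin 6 and at 66.3, 80.7 and 75.3 CPM with hairpin 8, against 77.2, 94.3 and 93.9 CPM in D425 controls. Replicate 1 was the lowest of each of these groups, and the groups overlapped. In D425 the change was -0.27 ± 0.11 with hairpin 6 (adjusted p = 0.127) and -0.26 ± 0.11 with hairpin 8 (adjusted p = 0.114). Both passed with the replicate block (adjusted p = 0.00317 and 0.00333) and without control replicate 1 (-0.36, adjusted p = 0.0448, and -0.35, adjusted p = 0.0427). In D458, MNT was at 67.1 to 76.1 CPM with hairpin 7 and 67.1 to 81.6 CPM with hairpin 8, against 70.4 to 87.5 CPM in controls, changes of -0.14 ± 0.11 and -0.08 ± 0.11 that did not pass.

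MGA, the MAX partner in PRC1.6, fell with both D458 hairpins. It was at 52.0, 55.9 and 52.7 CPM with hairpin 7 and at 50.7, 55.1 and 46.8 CPM with hairpin 8, against 86.4, 75.5 and 70.6 CPM in D458 controls. All hairpin libraries lay below all controls, and replicate 1 was the highest control. The level was 69.1% of controls with hairpin 7 (-0.53 ± 0.14, adjusted p = 0.0158) and 65.6% with hairpin 8 (-0.61 ± 0.14, adjusted p = 0.00793). The hairpin 8 call held without any one library, and the hairpin 7 call was lost without hairpin 7 replicate 1, hairpin 7 replicate 3 or control replicate 1 (adjusted p of up to 0.0777, values of -0.58 to -0.43). With replicate 1 left out of every group the D458 changes were -0.43 (adjusted p = 0.0155) and -0.52 (adjusted p = 0.00680). Without replicate 2 or 3 of every group both D458 calls were lost (adjusted p of 0.0680 to 0.128). In D425, MGA was at 94.2, 67.5 and 62.2 CPM with hairpin 6 and at 97.3, 88.3 and 74.0 CPM with hairpin 8, against 64.3, 83.9 and 77.2 CPM in controls. Replicate 1 was the highest with both D425 hairpins and the lowest of the controls, and the changes were -0.01 ± 0.14 and 0.20 ± 0.14 (adjusted p = 0.982 and 0.329). With replicate 1 left out of every group, the D425 hairpin 6 change of MGA was -0.31 (adjusted p = 0.0493). Without replicate 2 or 3 it was 0.14 and 0.12 (adjusted p = 0.776 and 0.828).

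**Figure D4:**
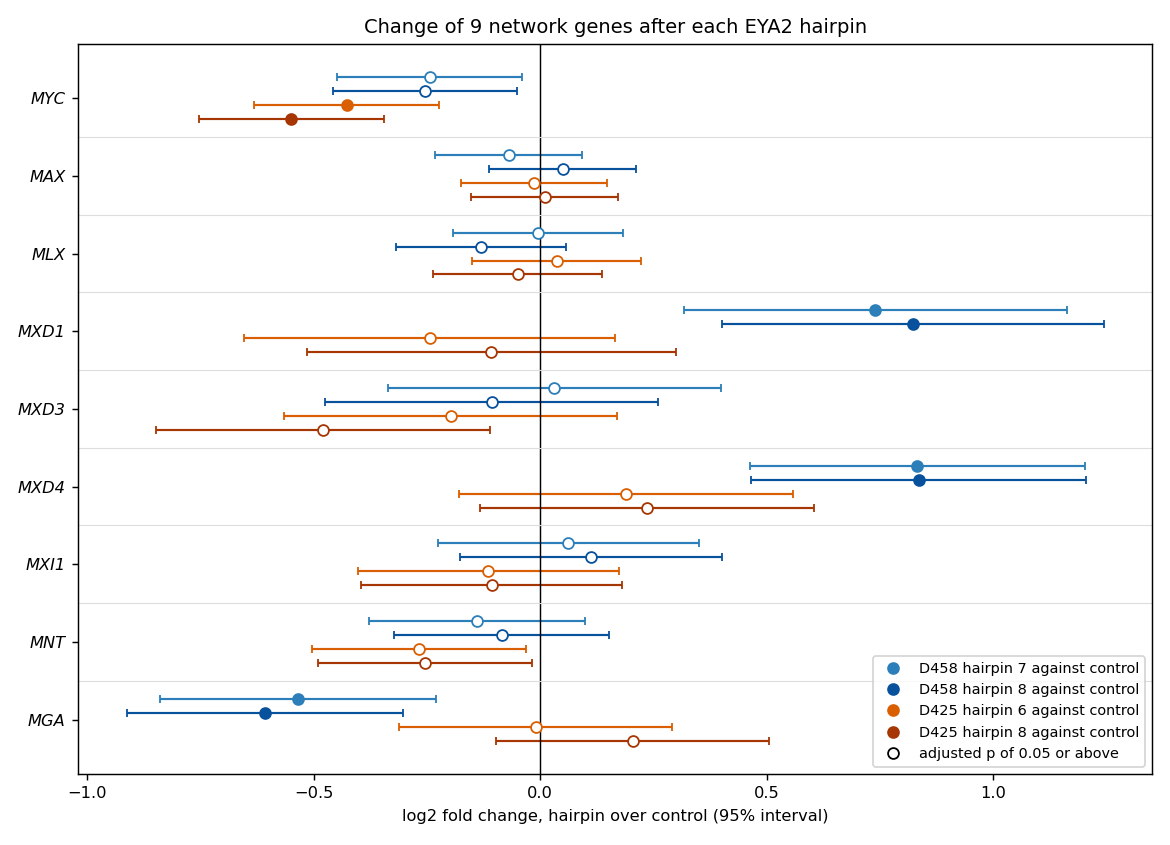
Log2 fold change of 9 network genes after each EYA2 hairpin, with 95% intervals (filled: adjusted p under 0.05; open: not). MXD1 and MXD4 lie at 0.74 to 0.84 and MGA at -0.53 and -0.61 in D458, MYC at -0.43 and -0.55 in D425, and MAX and MLX near 0 throughout. MYCN is not drawn.

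Hairpin 8 was used in both lines, so the difference between the lines could be tested on the same hairpin. The EYA2 change with it was -1.79 ± 0.27 in D458 and -0.98 ± 0.27 in D425. Their difference of -0.81 ± 0.38 did not pass (adjusted p = 0.177). EYA2 in controls was higher in D458 than in D425 (1.33 ± 0.27, adjusted p = 3.78e-04). The part of EYA2 level and knockdown in the line differences was not tested. The hairpin 8 change of D458 minus that of D425 passed for 2 of 10 network genes, MXD1 (higher) and MGA (lower), where 11.8% of all genes passed, 6.19% higher and 5.65% lower. For MXD1 the difference was 0.93 ± 0.28 (adjusted p = 0.0389), and for MGA it was -0.81 ± 0.20 (adjusted p = 0.0176). The MXD1 call was lost when any of 9 of the 12 libraries was left out (adjusted p of up to 0.0920, values of 0.61 to 1.13), and those 9 were all but control replicate 1 of D425 and hairpin 8 replicates 2 and 3 of D458. The MGA call was lost without D458 hairpin 8 replicate 3 or D458 control replicate 1 (adjusted p of up to 0.0550, values of -0.91 to -0.71). With replicate 1 left out of every group the differences were 0.57 (adjusted p = 0.0465) and -0.53 (adjusted p = 0.0301). Without replicate 2 or 3 of every group both calls were lost (adjusted p of 0.107 to 0.221). For MYC the difference of 0.29 ± 0.14 (adjusted p = 0.170) did not pass, and neither did that of MXD4, 0.60 ± 0.25 (adjusted p = 0.125). With the replicate block both passed (adjusted p = 0.0319 for MYC and 0.0372 for MXD4), and MYC also passed without D458 hairpin 8 replicate 1 (0.42, adjusted p = 0.0406). Without replicate 1, 2 or 3 of every group the MXD4 difference was 0.31, 0.66 and 0.87 (adjusted p = 0.285, 0.304 and 0.225). The MYC difference was 0.39, 0.39 and 0.16 in these fits (adjusted p = 0.0696, 0.290 and 0.649).

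Between the control groups, 3 of 10 network genes differed, D458 over D425, where 62.8% of all genes were called, 31.4% in each direction. MXD1 was at 8.75, 8.11 and 7.67 CPM in D458 controls, against 16.1, 16.2 and 15.9 CPM in D425 controls (-0.97 ± 0.20, adjusted p = 4.26e-04). With the hairpins, MXD1 in D458 averaged 13.6 ± 3.17 and 14.4 ± 5.26 CPM, against 16.1 ± 0.145 CPM in D425 controls (SD, n = 3 each; this difference was not tested). MLX was at 85.0, 70.5 and 72.3 CPM in D458 controls, against 115, 92.8 and 101 CPM in D425 controls (-0.44 ± 0.09, adjusted p = 3.96e-04). MAX was higher in D458 (0.19 ± 0.08, adjusted p = 0.0383), but the groups overlapped, and the call was lost without any of 4 of the 6 libraries (D425 control replicates 2 and 3, D458 control replicates 1 and 2; adjusted p of up to 0.238) and under other scalings. MYC in controls did not differ beyond the test (0.18 ± 0.10, adjusted p = 0.121), although the 3 D458 controls lay above the 3 D425 controls. With the replicate block, whose terms were set within each line, this comparison was of the lines at replicate 1 and not of the control means. MXD4 (0.65, adjusted p = 0.00595) and MXI1 (0.33, adjusted p = 0.0289) were called in it, which is not read as a difference between the controls. Without the block they were at 0.27 and 0.17 (adjusted p = 0.184 and 0.293).

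The 2 hairpins of a line were also compared. Hairpin 8 against hairpin 6 in D425 and hairpin 8 against hairpin 7 in D458 gave 0 called genes of 14850 with edgeR (0%), network genes included. At an unadjusted p under 0.05 there were 0 network genes and 519 of all genes in D425. In D458 there were 274 of all genes, and no network gene besides MYCN, of which no test is given. DESeq2 called 6 and 4 genes, none of the network. EYA2 itself was lower with hairpin 8 than with hairpin 7 in D458 without overlap (-1.24 ± 0.27, 95% interval -1.81 to -0.67), which did not pass over all genes. For MYC the hairpin 8 minus hairpin 6 difference in D425 was -0.12 (95% interval -0.33 to 0.08), and the hairpin 8 minus hairpin 7 difference in D458 was -0.01 (95% interval -0.21 to 0.19).

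The balance of MYC to its antagonists was described by the sum of MXD1, MXI1, MXD3 and MXD4 per kilobase. This sum was 71.9 ± 6.43 and 72.0 ± 6.97 CPM per kilobase with hairpins 7 and 8 and 55.1 ± 5.75 in controls of D458, and the groups did not overlap. In D425 it was 48.3 ± 2.90 and 47.7 ± 6.10 with hairpins 6 and 8 and 49.5 ± 7.18 in controls, with overlap (SD, n = 3 each). The ratio of MYC to that sum was 20.2 ± 2.71 and 20.2 ± 4.15 with hairpins 7 and 8 and 31.2 ± 3.03 in controls of D458. In D425 it was 23.4 ± 2.45 and 21.9 ± 3.19 with hairpins 6 and 8 and 30.9 ± 3.13 in controls. In both lines every hairpin library had a lower ratio than any control library, with 15.4 to 22.7 against 29.01 to 34.7 in D458 and 18.2 to 25.7 against 27.6 to 33.8 in D425. Replicate 1 was the lowest of the D458 hairpins, at 17.2 and 15.4, and the other 4 D458 hairpin libraries lay between 21.2 and 22.7. MXD4 made up 45.7% and 45.6% of the sum with hairpins 7 and 8 and 33.9% in controls of D458, and 36.2% and 37.8% with hairpins 6 and 8 and 31.2% in controls of D425.

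Genes that work with the network were counted from lists written from general knowledge, but with earlier results of these data known. The counts are therefore a description, and no test was run on a list as a whole. As background for their counts, 11.1% of all genes fell with each D458 hairpin and 6.84% and 10.1% with hairpins 6 and 8 of D425, and 11.5%, 12.1%, 7.31% and 11.6% rose in the same order. Without replicate 1 of every group, an alternative added after seeing the data, 7.94% and 6.14% of all genes fell in D458 and 10.8% and 12.8% in D425. In that fit 10.7% and 8.99% of all genes rose in D458 and 12.5% and 15.3% in D425. Of 11 genes of the SIN3 and histone deacetylase corepressor, through which MXD proteins and MNT repress, 5 fell with hairpin 7 and 6 with hairpin 8 in D458, and 1 fell with hairpin 6 and 3 with hairpin 8 in D425, with no rise. Without replicate 1 the falls numbered 3 and 2 in D458 and 1 and 3 in D425. The list medians were -0.25 and -0.25 in D458 and -0.08 and -0.11 in D425. SUDS3, a SIN3 subunit, fell in all 4 comparisons (-0.28 ± 0.06, -0.22 ± 0.06, -0.22 ± 0.06 and -0.25 ± 0.06, in the order hairpins 7 and 8 of D458, hairpins 6 and 8 of D425). Its D458 hairpin 8 call was lost without replicate 1 (adjusted p = 0.125). The deacetylase-linked subunit SAP30 was at 11.6 ± 1.16 and 11.4 ± 0.92 CPM with hairpins 7 and 8 and 19.5 ± 1.10 CPM in controls of D458 (SD, n = 3 each; adjusted p = 7.46e-04 and 5.77e-04). SAP30 changes in D458 were -0.74 and -0.76 without replicate 1, both called, and it did not pass in D425. HDAC2, the deacetylase itself, fell with both D458 hairpins (-0.26 with each; adjusted p = 0.0316 and 0.0305), and the scaffold SIN3A fell with hairpin 8 in D458 (-0.25, adjusted p = 0.0356) and in D425 (-0.30, adjusted p = 0.0148). The D458 calls of HDAC2 and SIN3A were lost without replicate 1 (adjusted p = 0.0511 to 0.0882).

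Of 15 MYC coactivators, 5 fell with hairpin 7 and 4 with hairpin 8 in D458, and 3 fell with hairpin 6 and 3 with hairpin 8 in D425, where 1 rose. Without replicate 1 the falls numbered 3 and 4 in D458 and 3 and 4 in D425, with no rise. RUVBL1, an ATPase of chromatin remodelling complexes, fell in all 4, and its level with hairpin 8 of D425 was 209 ± 17.6 CPM against 299 ± 30.5 CPM in controls (SD, n = 3 each; -0.52 ± 0.10, adjusted p = 0.00191). EP400, the large subunit of the TIP60 complex, fell in D458 (-0.35 ± 0.11 with hairpin 7, adjusted p = 0.0313, and -0.37 ± 0.11 with hairpin 8, adjusted p = 0.0247) and rose with D425 hairpin 8 (0.33 ± 0.11, adjusted p = 0.0380; 0.0808 without replicate 1). TRRAP, the scaffold that MYC contacts, fell with both D458 hairpins (-0.40 ± 0.12 and -0.46 ± 0.12, adjusted p = 0.0281 and 0.0146). ACTL6A, an actin-related subunit, passed in none, and fell with D425 hairpin 8 without replicate 1 (-0.27, adjusted p = 0.0252). Of 13 genes that set the stability of MYC protein, 2 rose and 1 fell with hairpin 7 and 2 rose and 2 fell with hairpin 8 in D458, and 2 fell with hairpin 6 and 1 rose and 3 fell with hairpin 8 in D425. Without replicate 1, 2 rose and 2 fell with hairpin 7 and 2 rose with hairpin 8 in D458, and 2 rose and 3 fell with each D425 hairpin. FBXO32, a ubiquitin ligase component, was at 52.5 ± 20.2 and 48.1 ± 24.1 CPM with hairpins 7 and 8 and 19.01 ± 3.13 CPM in controls of D458 (SD, n = 3 each; adjusted p = 0.00417 and 0.00646). Without replicate 1 the FBXO32 changes were 1.25 and 0.99 in D458 and, now called, 0.62 and 0.45 in D425. USP36, a nucleolar deubiquitinase of MYC, fell with D458 hairpin 8 and both D425 hairpins (-0.30 ± 0.10, -0.42 ± 0.10 and -0.48 ± 0.10), its D458 call was lost without replicate 1 (adjusted p = 0.213), and AURKA, a kinase that stabilises MYCN, fell with D425 hairpin 8 (-0.90 ± 0.21, adjusted p = 0.00712). SET, an inhibitor of the phosphatase PP2A, fell with both D425 hairpins (-0.47, adjusted p = 0.0114, and -0.64, adjusted p = 9.98e-04).

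Of 12 PRC1.6 partners of MGA, 2 fell with each D458 hairpin and 1 with each D425 hairpin, in D425 a share near that of all genes. Without replicate 1 the D458 falls numbered 1 and 0 (TFDP1 with hairpin 7). The D458 pair was TFDP1, the partner of E2F factors (-0.43 ± 0.11 and -0.40 ± 0.11, adjusted p = 0.0109 and 0.0146; hairpin 8 0.0757 without replicate 1), and HDAC2, and the D425 gene was WDR5 (-0.57 ± 0.11 and -0.72 ± 0.11, adjusted p = 0.00241 and 3.29e-04), which is also on the coactivator list. The ubiquitin ligase RNF2 passed in none. Of 3 tested targets of the MLX and MondoA pair, ARRDC4 fell with D458 hairpin 7 (-0.73 ± 0.19, adjusted p = 0.0119), and TXNIP and KLF10 passed in none. Without replicate 1 TXNIP rose with D425 hairpin 8 (0.54, adjusted p = 0.0379).

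Of 29 tested genes known to be activated by MYC, 8 fell with hairpin 7 and 12 with hairpin 8 in D458, and 2 fell with hairpin 6 and 5 with hairpin 8 in D425, and 1 rose in each. The 2 of 29 with D425 hairpin 6 is near the share of all genes. Without replicate 1 the falls numbered 5 and 1 in D458 and 3 and 6 in D425, against 12 with D458 hairpin 8 when replicate 1 is kept. The list medians were -0.23 and -0.28 in D458 and -0.03 and -0.17 in D425. NOP56, of the box C/D ribonucleoproteins, fell in all 4, and was at 385 ± 46.3 and 385 ± 58.9 CPM with hairpins 7 and 8 and 484 ± 16.9 CPM in controls of D458, and at 481 ± 18.5 and 423 ± 8.16 CPM with hairpins 6 and 8 and 606 ± 15.2 CPM in controls of D425 (SD, n = 3 each). Without replicate 1 both D458 calls of NOP56 were lost (adjusted p = 0.0591 and 0.122), and both D425 calls held. AHCY, which clears S-adenosylhomocysteine, moved in opposite directions. It was at 984 ± 93.3 and 1001 ± 47.4 CPM with hairpins 7 and 8 and 771 ± 26.4 CPM in controls of D458, and at 766 ± 36.9 and 690 ± 41.7 CPM with hairpins 6 and 8 and 1029 ± 39.9 CPM in controls of D425, and all 4 changes were called (adjusted p = 0.00409, 0.00264, 0.00135 and 1.20e-04), also without replicate 1. The gene that rose in D425 was CCND2, with 29 and 35 counts over 3 libraries with hairpins 6 and 8 against 2 counts in controls, and its hairpin 6 call was lost without replicate 1 (adjusted p = 0.0822). The ribosome assembly gene RRS1 fell in D458 (-0.43 ± 0.09 and -0.32 ± 0.09, adjusted p = 0.00316 and 0.0152; hairpin 8 0.241 without replicate 1). SRM, the spermidine synthase, fell with hairpin 8 in D458 (-0.35, adjusted p = 0.0177) and in D425 (-0.36, adjusted p = 0.0144), and neither call held without replicate 1.

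Of 7 genes known to be repressed by MYC, 4 rose and none fell in each of the 4 comparisons. In D458 these were GADD45A, NDRG2, THBS1 and PDGFRB with both hairpins, and in D425 CDKN2B, CDKN1A, NDRG1 and THBS1. Without replicate 1, 4 of 7 again rose in each, with CDKN1A called and THBS1 not called in D458. The list medians were 1.81 and 2.09 in D458 and 0.68 and 0.76 in D425. CDKN2B, an inhibitor of the cyclin D kinases, was at 7.47 ± 3.67 and 9.70 ± 4.62 CPM with hairpins 6 and 8 and 0.562 ± 0.62 CPM in controls of D425 (SD, n = 3 each; 3.76 ± 0.78, adjusted p = 0.00478, and 4.13 ± 0.78, adjusted p = 0.00194). The D458 changes of CDKN2B, 1.81 ± 0.85 and 2.28 ± 0.83, missed the threshold (adjusted p = 0.131 and 0.0581). THBS1, a secreted matrix protein, had 23 and 25 counts with hairpins 7 and 8 against 2 counts in D458 controls, and 193 and 166 counts with hairpins 6 and 8 against 46 counts in D425 controls, each over 3 libraries. NDRG2, known from differentiating cells, rose with both D458 hairpins (adjusted p = 0.00281 and 0.00524), at 6.58 and 6.02 CPM with hairpins 7 and 8 and 2.86 CPM in controls. PDGFRB was at 17.5 ± 4.91 and 17.8 ± 8.67 CPM with hairpins 7 and 8 and 4.19 ± 0.631 CPM in controls of D458 (SD, n = 3 each; adjusted p = 0.00118 and 0.00104), and it is also 1 of the 5 fibroblast markers, of which 4 of 4 tested rose with each D458 hairpin and 2 of 4 with each D425 hairpin. Of that list COL1A1 ranged over 0.537 to 41.5 CPM in the 18 libraries, and COL1A2, the untested member, over 0.0635 to 0.465 CPM. The DCN changes in D425 were -0.93 and 0.13 with hairpins 6 and 8, not called (adjusted p = 0.452 and 0.918). The part of other cells in these rises was not tested.

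**Figure D5:**
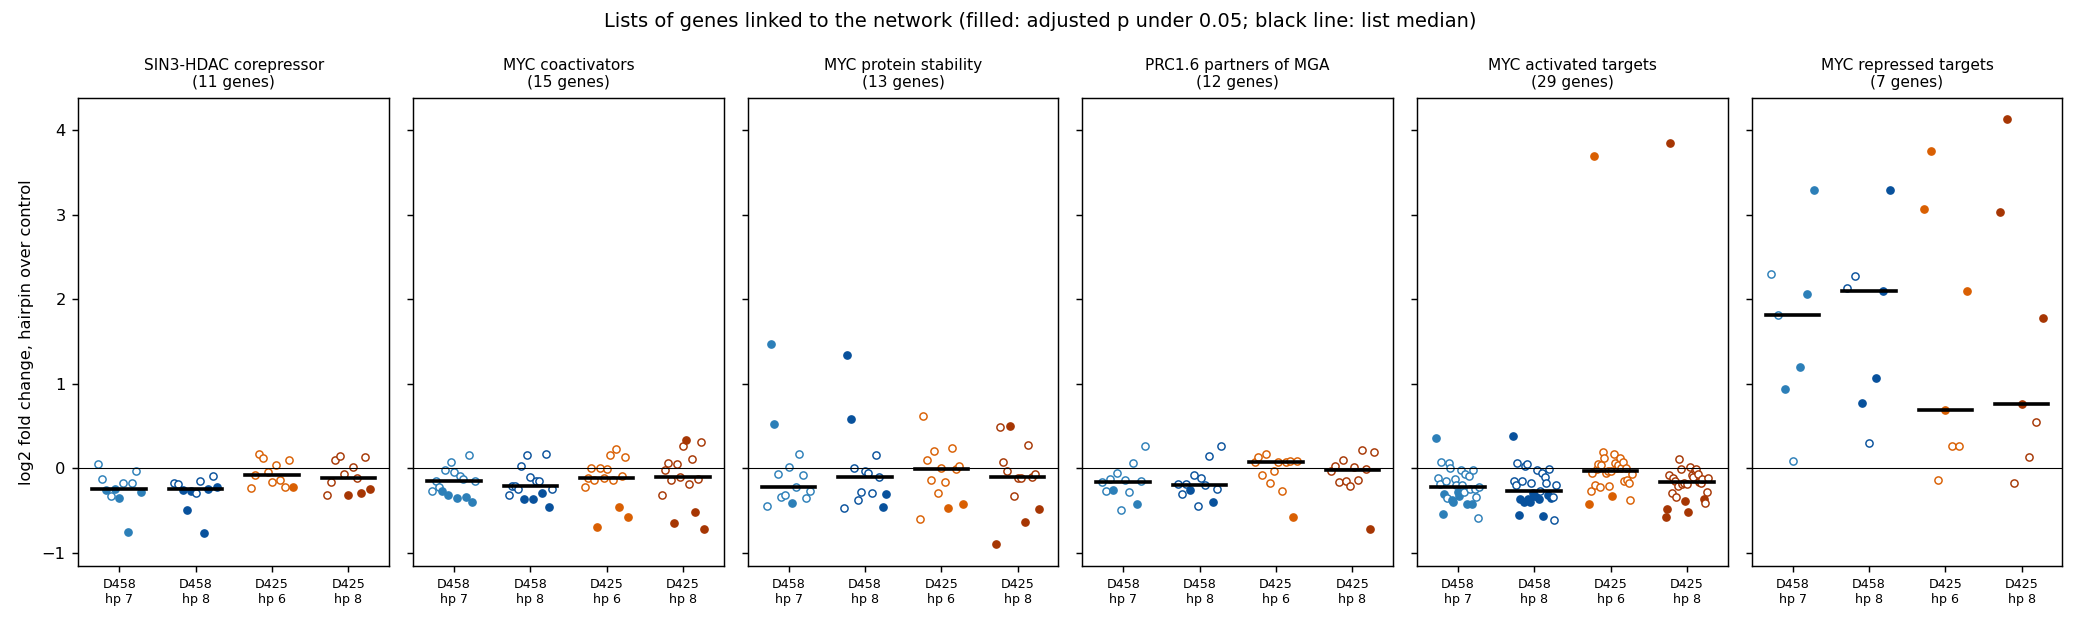
Log2 fold change of the genes of 6 lists linked to the network in each hairpin comparison (1 point per gene; filled: adjusted p under 0.05; black line: list median; hp: hairpin). The medians of the SIN3 and histone deacetylase list lie at -0.25 with both D458 hairpins, and those of the genes repressed by MYC at 0.68 to 2.09 in all 4.

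The genes with the profile most like that of MYC were found by Pearson correlation of log2 levels over the 18 libraries, after the mean of each line was removed, among 12738 other genes averaging at least 1 CPM. The libraries fall into hairpin and control groups that share these levels, so the values describe likeness and carry no test. The nearest were ARIH2 (r = 0.985), ATP1B3 (0.979), NUP188 (0.977), MRPS26 (0.971) and USP36 (0.963). NUP188, a nuclear pore scaffold, fell in all 4 comparisons (-0.38 ± 0.12, -0.40 ± 0.12, -0.65 ± 0.12 and -0.74 ± 0.12, in the order hairpins 7 and 8 of D458, hairpins 6 and 8 of D425). Among the network genes MNT was nearest (r = 0.764, place 850), then MXD3 (0.732, place 1082), and MXD4 was the most unlike (-0.615). MXD1 ran against MYC in D458 (r = -0.982) and with it in D425 (r = 0.624), over 9 libraries each.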

How the data were processed

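Whole-number counts of reads per gene symbol were deposited by the authors, unnormalized, in 1 table with a column for each of the 18 libraries. RNA was poly(A)-selected and libraries were stranded, per the labels' protocols. The submitters' processing notes name HTSeq, TopHat2, Bowtie2, Picard, SAMtools, FastQC and bcl2fastq and the builds GRCh37 and hg19. Their versions and the strand setting of the counting are not given there. filterByExpr of edgeR (minimum count 10) kept 14850 genes and removed 10519. With edgeR 4.0.16 in R 4.3.3, 1 quasi-likelihood model (robust, TMM, 1 coefficient per group, 12 residual degrees of freedom) was fitted to all libraries; calls needed a p under 0.05 after Benjamini-Hochberg adjustment over all tested genes, and the steps were tested on simulated data. DESeq2 1.42.0 was an alternative. The 8 comparisons were each hairpin against its control, hairpins within a line, the hairpin 8 effect between lines, and the controls. Lengths are those of GENCODE 29 transcripts, not of the counting annotation. Per the labels, same-numbered libraries share a run label, and replicates 2 and 3 a date; residuals of same-numbered libraries correlated at 0.347 on average in D458 (0.127 to 0.700) and 0.296 in D425 (0.084 to 0.608), so the number was used as a block in an alternative. The network genes, the lists and the naming rule (all 10 network genes, EYA2, up to 4 genes per list with the lowest sum of p ranks over the 4 hairpin comparisons and any called in all 4, the 5 genes and the network gene most like MYC) were chosen with earlier results of these data known; CCND2, CDKN1A, NDRG1, GADD45A, OTX2, PVT1 and MAEL were named after their values were seen. Counting error only is covered where counts are given.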

Additional observations from a re-analysis of the deposited data

Results flagged for a closer look

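The hairpin 8 change of MXD1 differed between the lines by a test of the difference itself. It was 0.82 in D458 and -0.11 in D425, a difference of 0.93 (log2, adjusted p = 0.0389); MXD1 was higher than its same-numbered control in 3 of 3 D458 pairs and lower in 3 of 3 D425 pairs, where the groups overlapped. The MXD1 call was lost on leaving out any of 9 of the 12 libraries (values of 0.61 to 1.13, adjusted p of up to 0.0920). The hairpin 8 change of MGA also differed by that test, at -0.61 in D458 and 0.20 in D425, a difference of -0.81 (log2, adjusted p = 0.0176). MGA was lower in 3 of 3 D458 pairs and higher in 2 of 3 D425 pairs, and the D425 groups overlapped. The MGA call was lost on leaving out either of 2 of the 12 libraries (adjusted p of up to 0.0550).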

How the results depend on the processing

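The alternatives were another scaling (DESeq2 size factors, library totals), no filter on low counts, DESeq2, the libraries of 1 line, the replicate block and leaving out libraries. Over 1237 values of single network genes, MYCN included, 1080 kept direction and side of the threshold, 51 no longer passed and 23 newly passed. A further 83 changed sign while within 1 standard error of 0 without passing in either fit. MYCN is also included in the counts of network genes called below. With the replicate block, 3 network genes were called with D425 hairpin 6 and 4 with D425 hairpin 8, against 1 and 2 without it. These counts include MYCN, of which no test is given, with both D425 hairpins under the block and with hairpin 8 without it. The hairpin 8 difference between lines was called for 4, against 2. In D458, 4 were called with each hairpin under the block. Between controls the block called 5, against 3, but there it compared the lines at replicate 1 and not the control means. The block also took the calls over all genes to 5937 and 5888 with hairpins 7 and 8 of D458, against 3357 and 3442. With hairpins 6 and 8 of D425 it took them to 4134 and 5521, against 2101 and 3221, and between lines to 3934, against 1758. Apart from MYCN with D425 hairpin 6, it changed no call of a network gene beyond those given above. It called 1 gene between the D458 hairpins, where the D458 libraries alone called 2. With libraries left out, singly or by replicate number, the network genes called ranged over 0 to 3 with D458 hairpin 7, 0 to 4 with D458 hairpin 8, 0 to 3 with D425 hairpin 6, 0 to 4 with D425 hairpin 8, 0 to 2 between lines, 2 to 3 between controls and 0 to 0 between hairpins. The calls over all genes ranged in the same fits over 663 to 2910, 818 to 3311, 116 to 3439, 513 to 4146, 75 to 2322 and 7182 to 9474 in that order, and 0 to 16 between hairpins. All D458 calls were lost without replicate 3 of every group, as was MYC in D425 (adjusted p = 0.183 with hairpin 6 and 0.0620 with hairpin 8), and without replicate 2 the D425 hairpin 6 call of MYC (0.0872) and the D458 calls of MXD1 and MGA were lost; these fits have 2 libraries per group. The D458 hairpin 7 call of MXD1 was lost with the D458 libraries alone (adjusted p = 0.0595). MAX between controls missed the threshold with DESeq2 size factors (0.0710), library totals (0.283), no filter (0.0912) and DESeq2 (0.0580), and MNT between controls passed with library totals (-0.24, adjusted p = 0.0480). Library totals gave 2061 higher and 1233 lower calls with D458 hairpin 8 (1792 and 1650 with TMM) and 2201 and 1048 with D425 hairpin 8 (1716 and 1505). Depth limits MYCN, at 0 to 19 counts per library.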

Other observations

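Of the 10 genes beside MYC on chromosome 8 in the count table, 7 were tested. FAM84B was at 37.1 ± 8.24 and 37.0 ± 12.4 CPM with hairpins 6 and 8 and 75.5 ± 23.6 CPM in controls of D425 (SD, n = 3 each; -1.03 ± 0.28 with each, adjusted p = 0.0241 and 0.0173), and it had 22, 21 and 9 counts in all with hairpin 7, hairpin 8 and the control of D458. SQLE, an enzyme of cholesterol synthesis, fell with both D458 hairpins (-0.64 ± 0.14 and -0.46 ± 0.14, adjusted p = 0.00449 and 0.0251), and its hairpin 8 call was lost without replicate 1 of every group (-0.18, adjusted p = 0.105). FAM49B fell with D458 hairpin 7 (-0.36, adjusted p = 0.0425; 0.0628 without replicate 1). POU5F1B and PVT1, the long noncoding RNA next to MYC, passed in none, and without replicate 1 POU5F1B fell with both D458 hairpins (-0.80 and -0.72, adjusted p = 5.38e-05 and 1.36e-04). The median change of the 490 tested genes of chromosome 8 was -0.04 and 0.00 with hairpins 7 and 8 of D458 and 0.02 with both hairpins of D425. The medians of chromosome 4, which holds MXD4, were 0.14 and 0.16 in D458, and those of chromosome 15, which holds MGA, were -0.06 and -0.04.

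Of 9 germ line genes that PRC1.6 represses in mouse cells, 2 passed the filter, and of these TDRKH was not called with any hairpin. STK31 had 9 and 15 counts over 3 libraries with hairpins 6 and 8 and 0 counts in controls of D425, and 152 and 213 counts with hairpins 7 and 8 and 126 counts in controls of D458. MAEL, which missed the filter, had 17 and 15 counts with hairpins 7 and 8 and 0 counts in controls of D458, and 1 and 4 counts with hairpins 6 and 8 and 3 counts in controls of D425.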
